A study of Homo sapiens with 2 samples.

Results

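The genes examined here were 46 human genes of DNA replication and S phase, taken from the deposited tables by gene name and followed from the licensing of replication origins to the assembly of chromatin on the new DNA. All 46 were among the 58174 genes listed. The study asked what the growth factor GDF1, a ligand of the TGF-β superfamily, does to hepatocellular carcinoma (HCC) cells. RNA was sequenced from PLC-8024-CTR cells, of the genotype Control, and from PLC-8024-GDF1 cells, of the genotype GDF1-overexpression, with 1 library each (the control library and the GDF1 library). PLC-8024 is an established human HCC cell line, and GDF1 was delivered by lentivirus followed by puromycin selection of stable cells. Which promoter drove the transgene, and whether a single clone was sequenced, is not given in the sources used here.

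Before S phase, the origin recognition complex, CDC6 and CDT1 load the ring-shaped MCM helicase onto origins, and geminin blocks CDT1 from loading it again. In S phase, CDC45 and GINS turn the loaded helicase into an active one, DNA polymerases copy the opened strands while held by the sliding clamp PCNA, and RPA covers the single-stranded DNA. Ribonucleotide reductase and thymidylate synthase supply the nucleotides, and many of the genes involved are switched on by E2F factors when cells leave G1. Liver cells in the adult are mostly out of the cycle, whereas HCC lines replicate continuously in culture.

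Values were deposited as TPM, a transcript abundance scaled by transcript length and by the total of each library. For each gene 1 was added to both TPM values, and the log2 of the GDF1 library's value over the control library's is called the log2 change. A gene was counted as past 2-fold when this value was over 1 or under -1. The added 1 TPM makes the change of low genes smaller than their plain ratio. With 1 library per condition there was no test, no replicate error and no p-value, so every difference describes these 2 libraries. TPM keeps no read depth, so no counting error is given either. The overexpressed gene was checked first. GDF1 itself was listed at 2.096 TPM in the control library and 4.64 TPM in the GDF1 library, while CERS1, whose annotated exons hold the GDF1 coding sequence, was listed at 13.3 and 9612 TPM. Of the hepatocyte markers, 17 of 18 were present at 1 TPM or more in either library. Their summed level was 13380 TPM in the control library and 8719 TPM in the GDF1 library. Of the 17, 10 (58.8%) were past 2-fold lower, against 9.61% of all genes with at least 1 TPM. These 10 include AFP, which the paper counts as a liver progenitor marker (31.4 and 9.75 TPM, log2 change -1.59). Of the other marker lists, 3 of 4 cholangiocyte genes (summed level 12.1 and 24.2 TPM), 1 of 6 fibroblast genes (3.80 and 2.61 TPM), 1 of 4 endothelial genes (23.5 and 22.4 TPM) and 2 of 5 leucocyte genes (331.4 and 227.3 TPM) were at 1 TPM or more. Single hepatocyte markers ranged from 0.20 to 5308 TPM. PTPRC, VWF and KDR, which mark leucocytes and endothelial cells, were at 0.0001 TPM, the value that stands for 0, in both libraries. Other genes of the same lists were present. LYZ was listed at 298.0 TPM in the control library and 213.5 TPM in the GDF1 library, CD68 at 33.1 and 13.2 TPM, and PECAM1 at 23.2 and 22.2 TPM. Transcripts of the mitochondrial genome made up 16.3% and 14.9% of TPM. The part of these shifts in the results on replication genes was not tested.

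Replication genes were mostly lower in the PLC-8024-GDF1 library, to very unequal degrees. All 46 members reached 1 TPM in either library, and 45 reached it in both. The log2 change was below 0 in 34 members (73.9%) and above 0 in 12. Of the 14929 genes that reached 1 TPM in either library, 9443 (63.3%) were lower. The median log2 change was -0.41 over the members and -0.20 over all genes, and the middle 50% of members lay between -0.92 and 0.00 (0.0048), against -0.59 and 0.22 for all genes. In total the 46 members held 1556 TPM in the control library and 1410 TPM in the GDF1 library, a log2 change of -0.14. POLD2 and MCM7, the most abundant members in both libraries, were not lower. In bulk RNA, a smaller share of cells in S phase and less RNA per cell cannot be told apart.

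Past 2-fold lower were 10 of 46 members (21.7%), where 9.61% of all genes passed the same limit. They were GMNN, RRM2, RPA1, TYMS, ATAD2, MCM4, ORC2, MCM2, MCM10 and RFC2. No member was past 2-fold higher, where 4.82% of all genes were. Because most genes were lower in PLC-8024-GDF1, the TPM were also rescaled to a median ratio of 1. On that scale 5 of 46 members remained past 2-fold lower (GMNN, RRM2, RPA1, TYMS and ATAD2), against 6.75% of all genes. POLE2 became the 1 member past 2-fold higher, against 7.01%. With plain TPM ratios, 13 of 46 members were past 2-fold lower and 1 higher, against 16.1% and 7.88% of all genes.

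**Figure D1:**
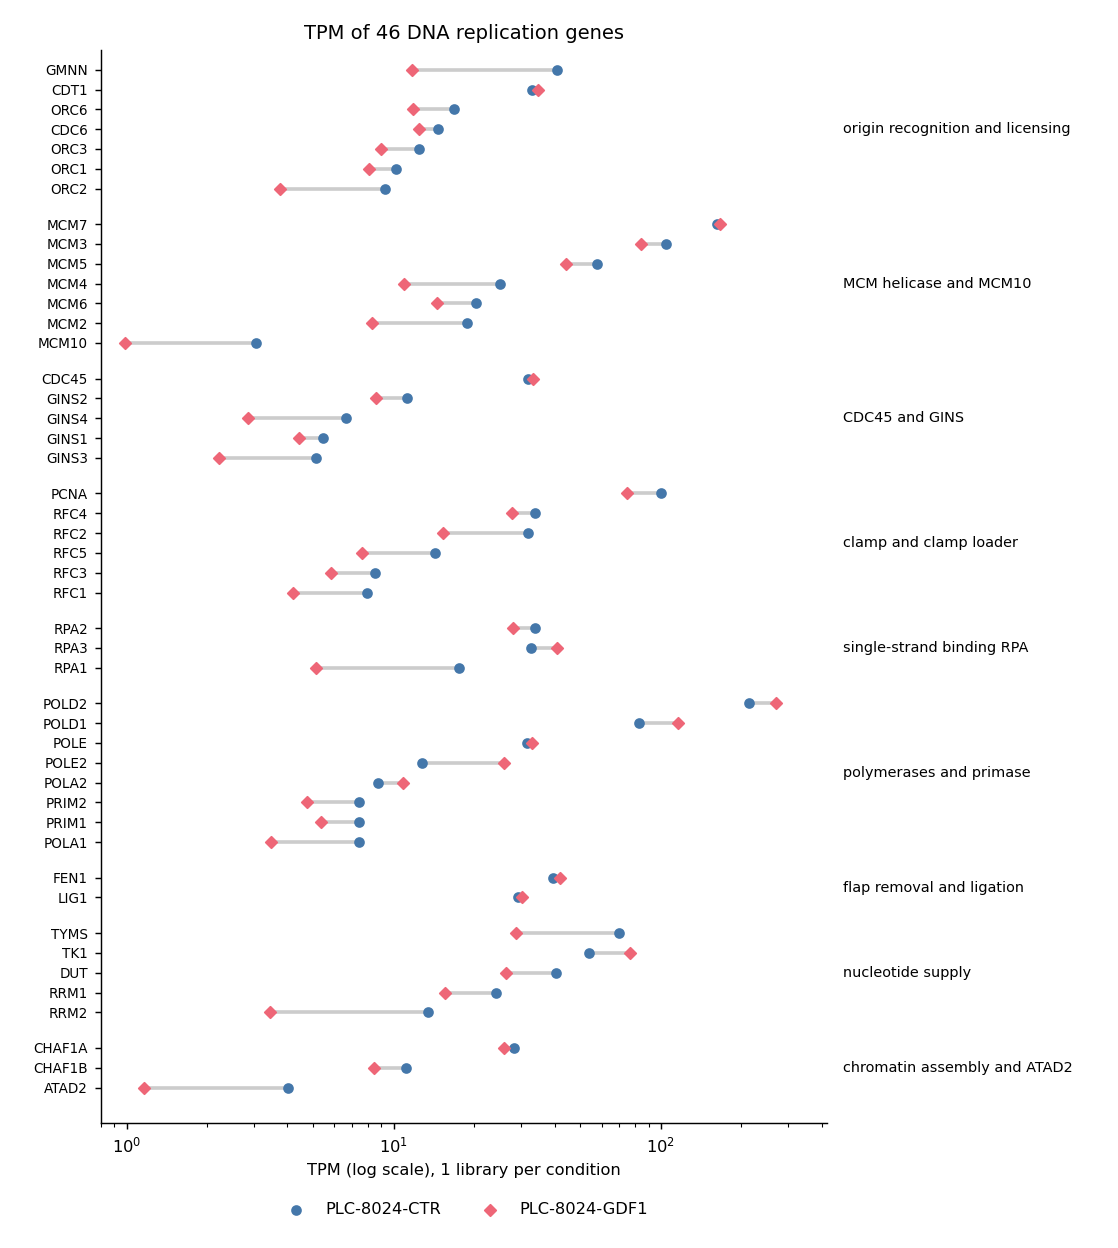
TPM of each of the 46 members (log axis) in the PLC-8024-CTR library (blue circles) and the PLC-8024-GDF1 library (red diamonds), grouped by role, with 1 library per condition and a grey line joining the same gene. The longest lines belong to GMNN (40.8 to 11.7 TPM), RRM2 (13.5 to 3.43 TPM), RPA1 (17.5 to 5.11 TPM) and ATAD2 (4.03 to 1.16 TPM), while POLD1, POLD2, POLE2, TK1 and RPA3 run the other way.

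Promoter sequence was examined because E2F sites are a known feature of these genes. Promoters of 250 bases before to 50 bases after the start, from RefSeq on GRCh38.p14, were found for 40 members, that is for all but ATAD2, GINS4, MCM4, MCM5, RPA2 and RPA3. The letters TTTCCCGC, TTTGGCGC, TTTCGCGC or TTTGCCGC, on either strand, were present in at least 1 promoter of 20 of these 40 genes (50%), in 3.99% of the 27305 genes with a promoter in the table and in 6.62% of the 9605 of them with at least 1 TPM. Members with and without these letters had log2 changes of similar size. The letters were present in 3 of 8 members past 2-fold lower (GMNN, TYMS and MCM2) and in 17 of the 32 others, and the median log2 change was -0.39 in the 20 members with them and -0.44 in the 20 without. The letters CCAAT of the NF-Y motif were present in 62.5% of members, 39.7% of all genes and 42.7% of genes with at least 1 TPM. The letters TTTGAA or TTTAAA were searched for the CHR element of mitotic genes. They were present in 15% of members, 27.9% of all genes, 19.9% of genes with at least 1 TPM and 93.1% of 29 mitosis genes. A match is a description of the letters and says nothing of binding. As examples of these letters before genes that were past 2-fold lower and genes that were not, 4 stretches of 100 bases are given, matched to GRCh37 and read 5′ to 3′ on the strand of the gene, with the E2F letters in capitals (GCGGGAAA and GCGCCAAA are TTTCCCGC and TTTGGCGC read on the other strand). Positions are counted from the RefSeq start next to each stretch. In POLE this start and the letters lie inside the annotated gene, which extends to position 133263962. GMNN has 2 RefSeq promoters, and the letters were in the one of the downstream start, inside the annotated gene, but not in the one of the upstream start. In GMNN (chr6:24775541-24775640, plus strand) the letters began 80 bases before that downstream start, in TYMS (chr18:657553-657652, plus strand) 39 bases, in CDT1 (chr16:88870097-88870196, plus strand) 35 bases and in POLE (chr12:133263929-133264028, minus strand) 18 bases.
GMNN: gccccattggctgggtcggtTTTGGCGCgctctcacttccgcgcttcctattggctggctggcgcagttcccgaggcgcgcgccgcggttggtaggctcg
TYMS: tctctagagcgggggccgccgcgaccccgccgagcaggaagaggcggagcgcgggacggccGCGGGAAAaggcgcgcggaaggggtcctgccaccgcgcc
CDT1: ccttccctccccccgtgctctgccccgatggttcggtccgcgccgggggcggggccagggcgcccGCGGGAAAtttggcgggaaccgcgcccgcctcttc
POLE: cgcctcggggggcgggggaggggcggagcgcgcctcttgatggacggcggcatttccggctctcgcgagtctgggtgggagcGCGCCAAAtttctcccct

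Among the 7 genes of origin recognition and licensing, 6 were lower and the median log2 change was -0.42. The largest difference was in GMNN (ENSG00000112312, chr6:24775159-24786327, plus strand), which encodes geminin, the inhibitor of CDT1. GMNN was listed at 40.8 TPM in the control library and 11.7 TPM in the GDF1 library, a log2 change of -1.71. CDT1, the loading factor that geminin holds back, was listed at 32.9 and 34.6 TPM, a log2 change of 0.07. Thus GMNN was the more abundant transcript of the pair in the control library and CDT1 in the GDF1 library. The CDT1 to GMNN ratio of TPM was 0.808 in the control library and 2.94 in the GDF1 library. The 2 transcripts differ in GC content, with 64.3% in CDT1 and 43.6% in GMNN. With the GC trend described below removed, their log2 changes were -0.066 and -1.31. Protein was not measured here. ORC2 (ENSG00000115942, chr2:201773700-201828403, minus strand), a subunit of the core complex that binds origins, was past 2-fold lower, with 9.29 and 3.76 TPM and a log2 change of -1.11. The other ORC members differed less. Of the ORC genes that are not members, ORC4 differed more (log2 change -1.73) and ORC5 less (-0.34). ORC1, which binds ATP in the complex, had 10.2 and 8.08 TPM (log2 change -0.30). ORC3, a core subunit, had 12.4 and 8.99 TPM (log2 change -0.42), and ORC6, the smallest subunit, had 16.8 and 11.8 TPM (log2 change -0.47). The ratio of the highest to the lowest of the ORC members, without ORC4 and ORC5, was 1.81 in the control library and 3.15 in the GDF1 library. CDC6, the ATPase that joins ORC to recruit the helicase, was close to level, with 14.6 and 12.5 TPM and a log2 change of -0.21.

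The MCM genes did not move together, although MCM2 to MCM7 form 1 ring. MCM4 (ENSG00000104738, chr8:48872745-48890720, plus strand) was listed at 25.1 TPM in the control library and 10.96 TPM in the GDF1 library, a log2 change of -1.13. MCM2 (ENSG00000073111, chr3:127317253-127341279, plus strand), which also carries histones, was listed at 18.8 and 8.30 TPM, a log2 change of -1.09. Both were past 2-fold lower, whereas MCM7 was the most abundant of the ring genes in both libraries and was not lower, with 161.9 and 167.2 TPM and a log2 change of 0.05. Between them lay MCM3 with 104.6 and 84.2 TPM (log2 change -0.31), MCM5, which forms the gate of the ring with MCM2, with 57.9 and 44.3 TPM (log2 change -0.38), and MCM6 with 20.4 and 14.5 TPM (log2 change -0.46). The 6 genes added up to 388.7 TPM in the control library and 329.4 TPM in the GDF1 library, and the spread from the highest to the lowest, MCM7 over MCM2, was 8.61-fold and 20.1-fold. MCM7 shares 7.90% of its exon bases with AP4M1 on the opposite strand, and with the TPM of overlapping genes added its log2 change was -0.0025. MCM10 (ENSG00000065328, chr10:13203558-13253110, plus strand), which is no part of the ring but is needed for origin firing, was the least abundant of the members, with 3.05 TPM in the control library and 0.99 TPM in the GDF1 library and a log2 change of -1.02.

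CDC45 and the GINS genes activate the helicase. CDC45 was level, with 31.9 TPM in the control library and 33.4 TPM in the GDF1 library and a log2 change of 0.06. Each of the GINS genes, whose products form a 4-part complex, was lower, though none was past 2-fold with the added 1 TPM. GINS4 had 6.62 and 2.85 TPM (log2 change -0.98) and GINS3 had 5.12 and 2.22 TPM (log2 change -0.93), and both were past 2-fold as plain ratios. GINS2 had 11.2 and 8.56 TPM (log2 change -0.35) and GINS1 had 5.44 and 4.43 TPM (log2 change -0.25), so the complex split into a pair near the limit and a pair well within it. GINS1 turned to 0.22 once the GC trend described below was removed. GINS3 shares 10.9% of its exon bases with AC009118.2 on the opposite strand, and with that gene added its log2 change was -0.67.

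All 6 genes of the clamp and its loader were lower with TPM as deposited, with a median log2 change of -0.63. PCNA, the ring that tethers polymerases to DNA, had 100.6 TPM in the control library and 74.5 TPM in the GDF1 library, a log2 change of -0.43. Of the RFC genes, whose products open PCNA and close it around DNA, RFC2 (ENSG00000049541, chr7:73645829-73668788, minus strand) lay just past the limit, with 31.7 and 15.3 TPM and a log2 change of -1.004. RFC5 with 14.3 and 7.62 TPM (log2 change -0.82) and the large subunit RFC1 with 7.93 and 4.21 TPM (log2 change -0.78) came next. RFC3 had 8.53 and 5.83 TPM (log2 change -0.48). RFC4 had 33.9 and 27.6 TPM (log2 change -0.29), and it was 0.08 (0.0775) with the GC trend removed. RFC4 also meets EIF4A2 on the opposite strand, over 0.601% of its exon bases.

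The RPA genes, whose products bind single-stranded DNA as 1 trimer, went in different directions. RPA1 (ENSG00000132383, chr17:1732996-1803376, plus strand), the large subunit with the main DNA-binding domains, was listed at 17.5 TPM in the control library and 5.11 TPM in the GDF1 library, a log2 change of -1.60. RPA2, the subunit phosphorylated under replication stress, had 33.8 and 27.9 TPM (log2 change -0.27). RPA3 (ENSG00000106399, chr7:7676149-7758238, minus strand), the smallest subunit, was higher, with 32.7 and 41.0 TPM (40.99) and a log2 change of 0.32. RPA3 exceeded RPA1 by 1.86-fold in the control library and by 8.03-fold in the GDF1 library, and RPA2 exceeded RPA1 by 1.93-fold and 5.46-fold. A ratio of 2 genes in 1 library does not depend on how that library was scaled, though it can depend on the GC content of the pair.

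**Figure D2:**
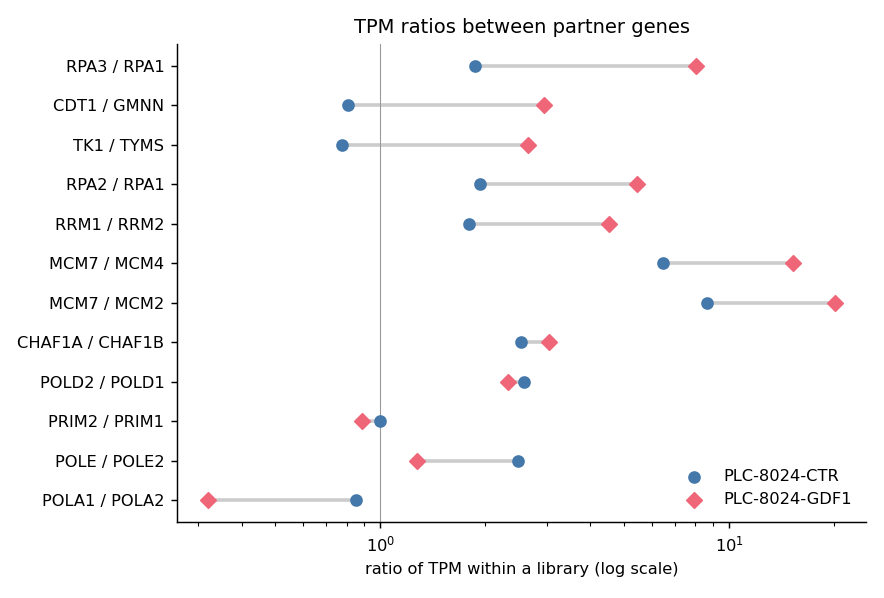
Ratio of the TPM of partner genes within a library (log axis) in PLC-8024-CTR (blue circles) and PLC-8024-GDF1 (red diamonds), with 1 library per condition and the grey vertical line at a ratio of 1. CDT1/GMNN and TK1/TYMS cross 1, from 0.808 to 2.94 and from 0.777 to 2.65, RPA3/RPA1 goes from 1.86 to 8.03, and POLA1/POLA2 goes down from 0.851 to 0.321.

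Among the members for polymerases and primase, higher genes outnumbered lower ones. Of 8 genes, 5 had a log2 change above 0, the median was 0.17, and together they held 372.96 TPM in the control library and 469.5 TPM in the GDF1 library. None was past 2-fold with the added 1 TPM, though POLE2 (higher) and POLA1 (lower) were as plain ratios, of 2.02 and 0.469. POLE2 (ENSG00000100479, chr14:50110273-50155140, minus strand), the second subunit of the leading-strand polymerase, came closest, with 12.8 and 25.9 TPM and a log2 change of 0.96, the highest of the 46 members. Its catalytic partner POLE was level, with 31.7 and 33.0 TPM (33.03) and a log2 change of 0.06, so that POLE exceeded POLE2 by 2.48-fold in the control library and by 1.28-fold in the GDF1 library. Of the lagging-strand polymerase, the members POLD1 and POLD2 were higher and kept a similar ratio, with POLD2 at 2.58-fold and 2.32-fold the TPM of POLD1. POLD1 (ENSG00000062822, chr19:50887461-50921275, plus strand), the catalytic subunit, had 83.1 and 116.2 TPM (log2 change 0.48), and POLD2 (ENSG00000106628, chr7:44154230-44163957, minus strand), the accessory subunit and the most abundant member, had 214.4 and 270.02 TPM (log2 change 0.33). The remaining subunits of these polymerases are not members and were lower, which was looked up after the values were seen. POLD3 had 3.22 and 2.39 TPM (log2 change -0.32) and POLD4 had 202.9 and 146.7 TPM (log2 change -0.46), while POLE3 had 23.03 and 19.4 TPM (log2 change -0.23) and POLE4 had 33.9 and 32.5 TPM (log2 change -0.059). In the primase complex, which starts each new strand, the genes went in different directions. POLA1, the catalytic polymerase subunit, had 7.40 and 3.47 TPM (log2 change -0.91), while its partner POLA2 had 8.70 and 10.8 TPM (log2 change 0.28). PRIM1, which makes the RNA primer, had 7.41 and 5.35 TPM (log2 change -0.41), and PRIM2, its regulatory partner, had 7.41 and 4.74 TPM (log2 change -0.55). PRIM1 shares 4.20% of its exon bases on the same strand with NACA, a gene at 445.8 and 428.4 TPM.

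The 2 members for flap removal and ligation, FEN1 and LIG1, were level. FEN1, the nuclease that removes flaps, had 39.4 TPM in the control library and 41.8 TPM in the GDF1 library (log2 change 0.08), and LIG1, the ligase that seals the nicks, had 29.1 and 30.1 TPM (log2 change 0.05).

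The nucleotide supply genes were lower for 4 of 5 members, with a median log2 change of -0.60. RRM2 (ENSG00000171848, chr2:10260825-10351851, plus strand), the S-phase subunit of ribonucleotide reductase that carries the radical, was listed at 13.5 TPM in the control library and 3.43 TPM in the GDF1 library, a log2 change of -1.71. RRM1, the catalytic subunit, had 24.1 and 15.5 TPM (log2 change -0.60), so that RRM1 exceeded RRM2 by 1.79-fold and 4.53-fold. TYMS (ENSG00000176890, chr18:657653-673578, plus strand), thymidylate synthase, had 69.5 and 28.8 TPM (log2 change -1.24). TYMS shares 39.9% of its exon bases with ENOSF1 on the opposite strand, whose TPM were 26.3 and 17.7, and strand use in the counting is not stated. With the TPM of ENOSF1 added, the log2 change of TYMS was -1.03, still past 2-fold. With TYMSOS, which covers 7.97% of its exon bases, added as well, it was -0.95, within 2-fold. TK1 (ENSG00000167900, chr17:76170172-76183314, minus strand), the salvage kinase for thymidine, went the other way, with 54.0 and 76.5 TPM and a log2 change of 0.49. Of the enzymes that make thymidine monophosphate, TYMS was thus the more abundant transcript in the control library and TK1 in the GDF1 library. Their GC content differs too, with 62.8% in TK1 and 48.9% in TYMS. With the GC trend removed, the log2 changes were 0.42 for TK1 and -0.95 for TYMS. DUT, which removes dUTP, had 40.5 and 26.4 TPM (log2 change -0.60).

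Among the genes of chromatin assembly, CHAF1A had 28.1 TPM in the control library and 25.8 TPM in the GDF1 library (log2 change -0.12), and its sign turned to 0.08 (0.0819) with TPM rescaled to a median ratio of 1. CHAF1B, its partner in the factor that places histones behind the fork, had 11.1 and 8.47 TPM (log2 change -0.35). ATAD2 (ENSG00000156802, chr8:124332090-124428590, minus strand), a bromodomain ATPase of replicating chromatin, was past 2-fold lower, with 4.03 and 1.16 TPM and a log2 change of -1.22.

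**Figure D3:**
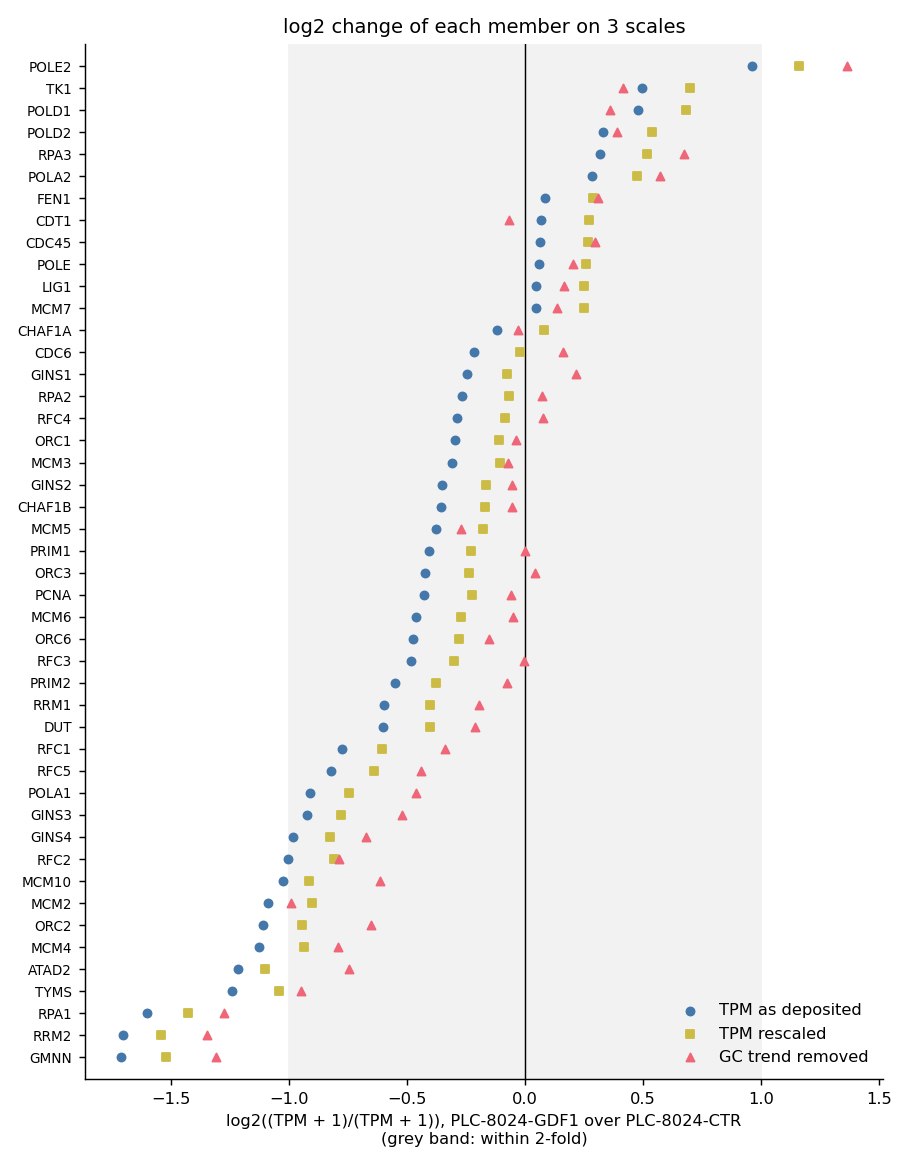
log2((TPM + 1)/(TPM + 1)), PLC-8024-GDF1 divided by PLC-8024-CTR, for the 46 members in the order of their change, with TPM as deposited (blue circles), TPM rescaled to a median ratio of 1 (yellow squares) and the GC trend removed (red triangles), 1 library per condition, and a grey band over changes within 2-fold. GMNN, RRM2 and RPA1 lie under -1 on all 3 scales, and POLE2 lies over 1 only on the rescaled and GC-corrected ones (1.16 and 1.36).

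Changes of the members also went with the GC content of their transcripts, as those of protein-coding genes did. The members' median GC content was 46.8%. Over the 46 members, the Spearman correlation of the log2 change with GC content was 0.48 (Pearson 0.44), and over 11792 protein-coding genes it was 0.33 (Pearson 0.29). All points come from the same 2 libraries, so these are descriptions. Protein-coding genes were split by GC content into 5 groups of like size. From the lowest group to the highest, 14.0%, 13.5%, 12.1%, 8.27% and 4.87% of them were past 2-fold lower. Of the members, 2 of 7 were past 2-fold lower in the first group, 3 of 15 in the second, 4 of 14 in the third, 1 of 7 in the fourth and 0 of 3 in the fifth, which is no steady order. The 3 members with the highest GC content were CDT1, POLD1 and TK1, and each was higher in PLC-8024-GDF1. With the trend over all protein-coding genes removed, the members' median was -0.058. On that scale 3 of the 46 members were past 2-fold lower, GMNN (-1.31), RRM2 (-1.35) and RPA1 (-1.27). That is near the share of 5.81% over protein-coding genes. POLE2 was past 2-fold higher at 1.36, against 5.61%. The log2 changes of CDC6, CDT1, GINS1, ORC3, RFC4 and RPA2 turned sign. The part of GC content in these results was not tested. The members' change also went with their level in PLC-8024-CTR (Spearman correlation 0.35), which it did not over protein-coding genes (-0.0049). Since the control level is part of the change itself, this too is only a description.

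**Figure D4:**
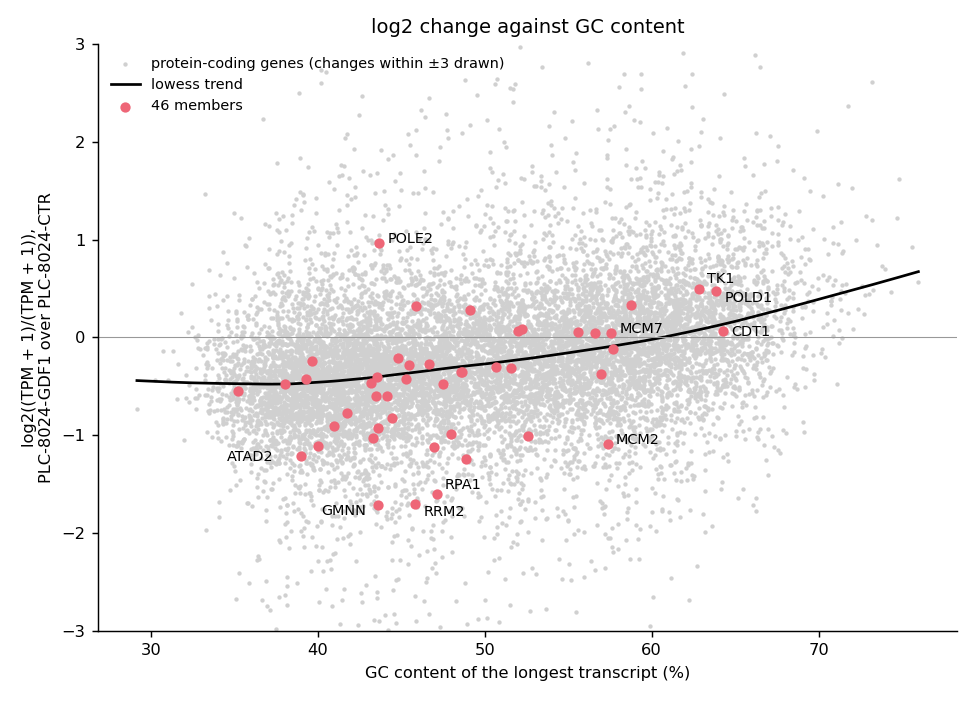
log2 change, PLC-8024-GDF1 against PLC-8024-CTR, (vertical axis) against transcript GC content in percent, from the longest transcript, (horizontal axis) for protein-coding genes within ±3 (grey), the 46 members (red) and the lowess trend over 11792 protein-coding genes (black line). GMNN, RRM2 and RPA1 lie over 1 unit below the trend, POLE2 lies 1.36 above it, and CDT1, POLD1 and TK1 stand at the highest GC content of the members.

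The other genes of the pathway were mostly lower too, but few were past 2-fold. In a list of 42 further replication genes, all of which reached 1 TPM, 35 were lower and 7 higher, with a median log2 change of -0.40. Of the 42, 4 (9.52%) were past 2-fold lower, near the 9.61% of all genes, and 2 (4.76%) were past 2-fold higher, near the 4.82%. Lower were ORC4, a core subunit of the origin complex (7.55 TPM in the control library and 1.58 TPM in the GDF1 library), TOP1, which relaxes DNA ahead of the fork (8.88 and 2.86 TPM), UHRF1, which guides maintenance methylation (8.20 and 2.66 TPM), and MCMBP, an MCM-binding protein (13.1 and 6.01 TPM). ORC4 and ORC2 were thus both past 2-fold lower, with log2 changes of -1.73 and -1.11. Higher were SUPT16H, a subunit of the histone chaperone FACT, with 9.75 and 37.2 TPM and a log2 change of 1.83, and DBF4, the activator of the CDC7 kinase, with 2.31 and 6.65 TPM and a log2 change of 1.21. Their partners, named after the values were seen, did not follow them, since SSRP1 had 77.04 and 50.8 TPM (log2 change -0.59) and CDC7 had 4.68 and 3.07 TPM (log2 change -0.48).

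Cell-cycle lists outside replication also had medians below 0. Over 35 mitosis genes, 30 of them lower and 5 higher, the median log2 change was -0.54. Of these, 8 (22.9%) were past 2-fold lower and 1 (2.86%) was past 2-fold higher, against 9.61% and 4.82% of all genes. NUSAP1, a spindle protein, had 20.2 TPM in the control library and 2.26 TPM in the GDF1 library (log2 change -2.70), and ECT2, an exchange factor of cytokinesis, had 10.3 and 0.83 TPM (log2 change -2.63). The other 6 that were past 2-fold lower were KIF23 (log2 change -1.38), BUB1B (-1.24), ANLN (-1.20), HMMR (-1.16), BUB1 (-1.09) and BIRC5 (-1.06), genes of the spindle, its checkpoint and cytokinesis. The 1 that was higher was AURKA, a spindle kinase, with 23.7 and 48.4 TPM (log2 change 1.001). Over 25 of 30 genes of G1/S control with at least 1 TPM, 16 of them lower and 9 higher, the median was -0.46. With at least 5 TPM in either library it was -0.16, and the median of all genes at that limit was -0.20. Of the 25, 7 (28%) were past 2-fold lower and 0 past 2-fold higher, against the same shares of all genes. CDK2, the kinase that drives S phase, had 16.5 and 1.62 TPM (log2 change -2.74), CDK4, the kinase of G1 cyclins, had 196.6 and 62.0 TPM (log2 change -1.65), and CCNA2, the S-phase cyclin, had 13.3 and 5.005 TPM (log2 change -1.25). The other 4 were E2F6, a repressor of the E2F family, with 10.7 and 1.74 TPM (log2 change -2.09), E2F3, mainly an activator (log2 change -1.29), E2F5, a repressor (log2 change -1.26), and CDKN2B, an inhibitor of CDK4 (log2 change -1.09). Drivers and inhibitors of the G1/S step were thus both among the 7. The differences between these lists and the members were not tested.

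**Figure D5:**
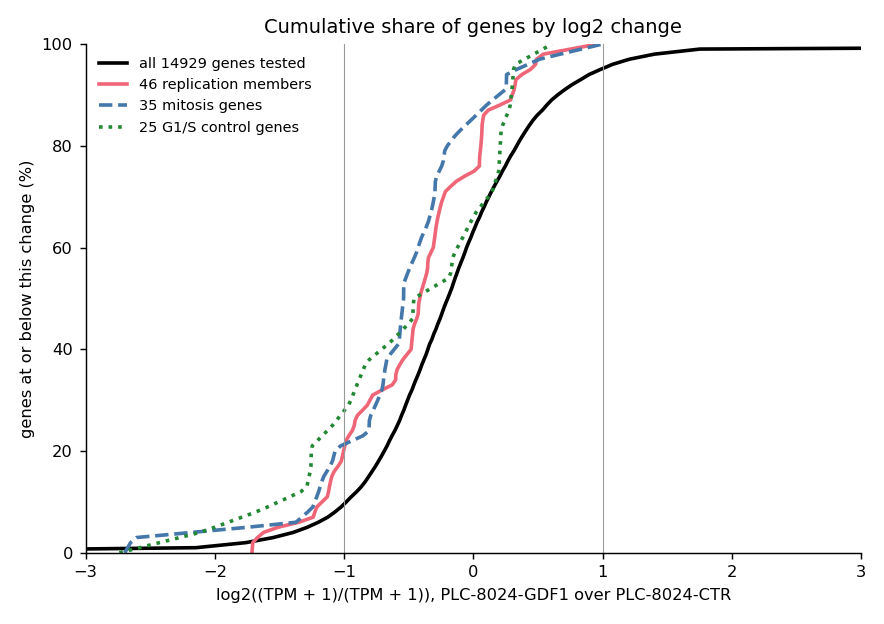
Percent of genes (vertical axis) at or below each log2 change, PLC-8024-GDF1 against PLC-8024-CTR, (horizontal axis) for all 14929 genes tested, the 46 replication members, 35 mitosis genes and 25 G1/S control genes, with grey lines at -1 and 1. The 3 lists have medians of -0.41, -0.54 and -0.46, left of the -0.20 of all genes, and the members do not reach 1.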

How the data were processed

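RNA of control and GDF1-overexpressing PLC-8024 cells was sequenced as poly-A selected paired-end libraries, 1 per condition. Per the methods and the submitters' processing notes, reads were filtered with Trimmomatic (0.36), aligned to hg19 with HISAT2 (2.1.0) and quantified with StringTie (1.3.3b), and the authors deposited 1 TPM value per gene for 58174 genes. The TPM summed to 999990 and 999995, so the depth is unknown and no interval is given. Strand use in counting is not given in the sources used here.

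The 46 members were matched by gene name. The log2 change used a pseudocount of 1 TPM, genes that reached 1 TPM in either library were set against the 2-fold limit, and no p-value was computed. Positions, overlaps and transcript GC content came from GENCODE v44 on GRCh37, which held 55726 of the identifiers. The methods name the RefSeq refGene annotation, whereas the tables carry Ensembl identifiers, so the overlaps and GC content may differ from those of the annotation used for TPM. A lowess GC trend (span 0.3) was fitted over 11792 protein-coding genes. Promoters came from RefSeq. Python 3.11.15, numpy 2.4.6, pandas 2.3.3, statsmodels 0.14.6 and matplotlib 3.10.9 were used, and the scripts were tested on simulated data.

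All members were named. Of the other replication, mitosis and G1/S control lists, genes past 2-fold were named, at most 8 each by size. AURKA and the partner genes outside that rule, as well as the gene pairs set in ratio, were chosen after their values were seen. The members and lists were chosen with earlier results of these data known. Alternatives covered pseudocounts, TPM minimums, scalings, gene types, GC content and overlapping genes. The addition of genes over 10% of the exon bases was chosen after seeing the data.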

Additional observations from a re-analysis of the deposited data

How the results depend on the processing

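With 1 library per condition no replicate could be left out. No paired analysis was possible because there was 1 library per condition. The members' median (-0.41) stayed negative under every alternative tried, but its size and the counts depended on scaling and GC content. Members past 2-fold higher (0) became 1, POLE2, with a pseudocount of 0.1 TPM, plain ratios, either rescaling or the GC trend removed. Members past 2-fold lower (10) became 5 with TPM rescaled to a median ratio of 1, where 6.75% of all genes were. The count was also 5 by the upper quartile, and 3 with the GC trend removed, where 5.81% of protein-coding genes were. The members' median became -0.23, -0.25 and -0.058 in the same order. Its distance from the median of all genes (-0.22) became -0.057 with the GC trend removed. With no filter on low values the median of all 58174 genes was 0, so the distance was the members' own median, -0.41. Other replication genes past 2-fold lower (4) became 9 with a pseudocount of 0.1 TPM or plain ratios and 2 with the GC trend removed. The median of the mitosis list (-0.54) became -0.35 after median rescaling, -0.38 by the upper quartile and -0.21 with the GC trend removed. The median of the G1/S control list (-0.46) became -0.29, -0.31 and -0.10 in the same order. It was -0.16 with at least 5 TPM, where the median of all genes was -0.20. With no filter, where its 5 genes under 1 TPM also count, it was -0.17. The cause of the other shifts was not tested. Adding the TPM of overlapping genes left 10 members past 2-fold lower, without TYMS and with RFC4. Low genes such as MCM10 and ATAD2 rest on few TPM, and the depth behind them is unknown.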

Other observations

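MCM7 carries 3 microRNA genes in its span. MIR25 was listed at 16.9 TPM in the control library and 15.8 TPM in the GDF1 library, MIR106B at 1.92 and 2.20 TPM, and MIR93 at 1.72 and 0.70 TPM. These values come from libraries of polyadenylated RNA and do not measure the mature microRNAs.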
